A study of Bos taurus with 38 samples.

Results

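GIMAP4 (ENSBTAG00000046257) and GIMAP8 (ENSBTAG00000014402) are 2 of the 24616 Ensembl genes counted in 38 liver RNA-Seq libraries of dairy cows. They were taken by their identifiers because the study names them among its differentially expressed genes (DEGs) between residual feed intake (RFI) groups of Jerseys. They were thus selected on the RFI difference of their counts in the 20 Jersey libraries, which is described below without a test. The libraries came from biopsies of 9 Holstein and 10 Jersey cows, each biopsied once while fed a control (C) diet and once while fed more concentrate (high concentrate, HC), with the order of diets crossed over, so that each cow gave 2 libraries. RFI is the feed intake that is left after the expected intake is subtracted, so a low RFI marks a feed-efficient cow. The Holsteins counted 4 cows of high RFI and 5 of low RFI, and the Jerseys 5 of each. Of the Holsteins, 3 cows were in each of parity 1, 2 and 3, and of the Jerseys 4, 2 and 4 cows. A parity 1 cow is in milk after her first calf.

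GIMAP proteins are GTPases of immunity-associated proteins. They bind guanine nucleotides, sit on membranes inside the cell, and are known mainly from lymphocytes, where family members take part in the survival and turnover of T and B cells. Their genes lie side by side in mammalian genomes. In the RefSeq gene order of the cattle assembly ARS-UCD2.0, GIMAP8 and GIMAP4 are on the same chromosome with 3 protein-coding genes between them, of which 2 carry GIMAP7 as a synonym. That chromosome holds 10 protein-coding genes with a GIMAP symbol or synonym. Only GIMAP4 and GIMAP8 of this family were paired with an Ensembl identifier in the sources used here, so the other members were not analysed. How read pairs that fit more than 1 of these related genes were counted is not given in the sources used here, and its part in the values was not tested.

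Between 17472750 and 24478289 read pairs per library were assigned to genes, with a median of 19814536. Levels are given as counts per 1000000 (CPM) of that total. GIMAP4 was counted 83 to 2016 times per library and GIMAP8 313 to 2275 times. The lowest of these counts carries a counting error of 11%, which leaves out every other source of error. By mean CPM over the libraries GIMAP4 ranked 2790 and GIMAP8 2508 of all genes. In bulk tissue fewer cells of a type and less RNA per cell cannot be told apart. No hepatocyte marker was paired with an identifier, so the labelled tissue could not be checked against its markers.

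The libraries labelled cow 10 and cow 17, both low-RFI Jerseys, went against their cow numbers over a set of steady genes. Among 219 genes that were steady within the other 17 cows (r over 0.8 between diets, GIMAP4 and GIMAP8 left out), the C library of cow 10 was most like the C library of cow 17 (r = 0.79 across genes). The HC library of cow 10 was most like the HC library of cow 17 (r = 0.87). Their correlations with the other library of the same cow were 0.36 for cow 10 and 0.40 for cow 17, against 0.68 to 0.96 in the other 17 cows, on which these genes were chosen. Over these genes the other 34 libraries were most like the second library of their own cow. Over all 11966 genes 30 of 38 libraries were, those of cow 17 among them (r = 0.21), and the exceptions were the 8 libraries of cows 5, 10, 14 and 15. The labels were used as given, and the main diet and pairing results are also given without cows 10 and 17.

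GIMAP4 cow means ran from 4.28 to 95.9 CPM, and the libraries fell into separate ranges. In the Holsteins, the 4 high-RFI cows had 8.12, 9.27, 75.0 and 103 CPM on C and, in the same order of cows, 7.86, 10.3, 108 and 88.7 CPM on HC. The 5 low-RFI Holsteins had 4.54, 6.58, 7.74, 30.5 and 71.7 CPM on C and, again by cow, 4.01, 6.30, 7.04, 37.4 and 77.1 CPM on HC. Each Holstein group thus held cows at or under 10.3 CPM and cows at 30.5 CPM or more, and none between.

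The 5 high-RFI Jerseys had 6.15, 7.42, 9.13, 25.7 and 27.9 CPM of GIMAP4 on C and, by cow, 6.24, 6.82, 7.42, 24.7 and 27.7 CPM on HC. In the low-RFI Jerseys, cows 10, 17, 5, 8 and 14 had 23.3, 26.9, 32.6, 67 and 97.5 CPM on C. On HC the same cows had 62.9, 61.5, 23.0, 73.3 and 35.0 CPM. No low-RFI Jersey library was in the lowest range, and 3 of the 5 cows changed range between their libraries.

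Over all 38 libraries, the widest gap in GIMAP4 lay between 10.3 and 23.0 CPM, with 16 libraries below it and 22 above. The next gap lay between 37.4 and 61.5 CPM. The gaps left 16 libraries at 4.01 to 10.3 CPM, 11 libraries at 23.0 to 37.4 CPM and 11 libraries at 61.5 to 108 CPM. In 16 of the 19 cows both libraries were in the same range, and the exceptions were cows 10, 14 and 17, with 1 library in the middle and 1 in the highest range.

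**Figure D1:**
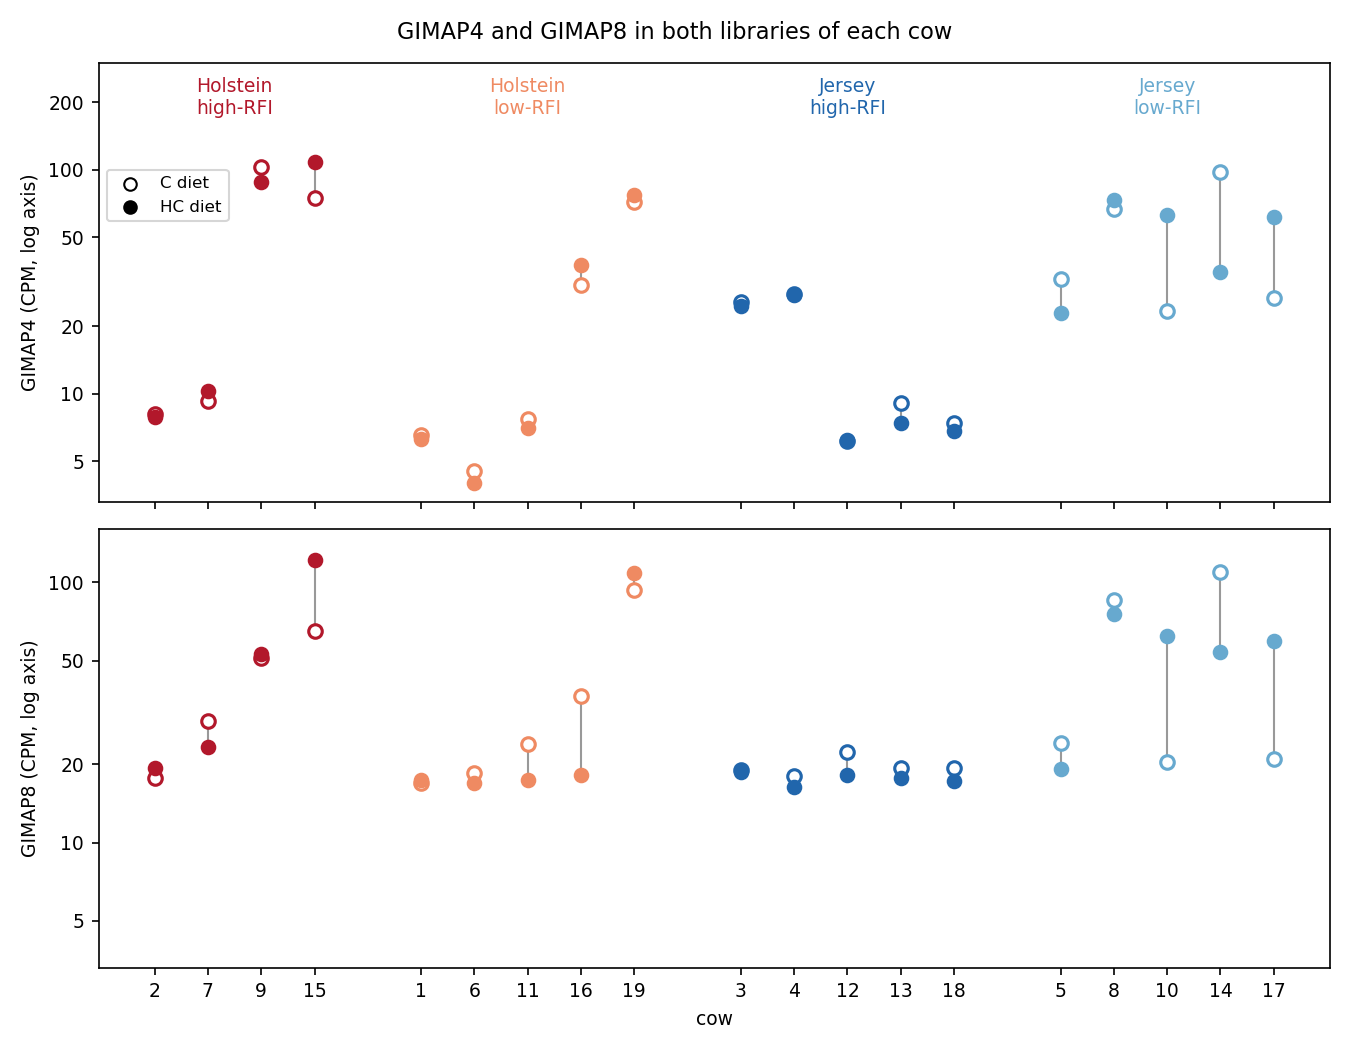
CPM of GIMAP4 (upper panel) and GIMAP8 (lower panel) on log axes, with a column for each cow, ordered by breed and RFI group. Open points are the C libraries and filled points the HC libraries, joined by a line within a cow. GIMAP4 leaves an empty range between 10.3 and 23.0 CPM, and the GIMAP8 levels of the 5 high-RFI Jerseys lie between 16.4 and 22.4 CPM.

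GIMAP8 lay close to 18 CPM in many cows and far above it in some. In the high-RFI Holsteins it was at 17.7, 29.4, 51.1 and 65.2 CPM on C and, by cow, at 19.4, 23.4, 53.0 and 122 CPM on HC. The low-RFI Holsteins had 16.9, 18.5, 24.0, 36.5 and 93.5 CPM on C, and by cow 17.4, 16.9, 17.4, 18.2 and 109 CPM on HC. In the Holsteins, cow 19 in the low-RFI group and cows 9 and 15 in the high-RFI group were above 50 CPM in both libraries.

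The 5 high-RFI Jerseys stayed together, from 18.1 to 22.4 CPM of GIMAP8 on C and from 16.4 to 18.7 CPM on HC. Of the low-RFI Jerseys, cows 10, 17, 5, 8 and 14 had 20.5, 20.9, 24.0, 85.3 and 110 CPM on C and 62.3, 59.5, 19.2, 75.8 and 53.9 CPM on HC. The high-RFI Jerseys spanned the narrowest range of the 4 breed and RFI groups, with an SD of 1.09 CPM over cow means against 26.8 to 36.3 CPM in the other 3 groups.

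Both genes varied more between cows than most genes of these livers. With breed and RFI group means taken out, the SD of the cow means was 1.36 on the log2 scale for GIMAP4 and 0.82 for GIMAP8, against a median of 0.16 over 11966 genes. A higher SD was found for 20 genes in the case of GIMAP4 (0.167% of the genes) and for 120 in the case of GIMAP8 (1% of the genes). The edgeR biological coefficient of variation was 0.616 for GIMAP4 and 0.394 for GIMAP8 among Holsteins, and 0.482 and 0.427 among Jerseys, with medians of 0.142 and 0.145 over all genes tested. These spreads set how large a difference between groups had to be to pass a test.

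The 2 libraries of a cow held much the same level. The median fold between the libraries of a cow was 1.11 for GIMAP4 and 1.17 for GIMAP8. As deviations from the breed by RFI group mean of each diet, the log2 CPM on C and HC correlated over 19 cows with r = 0.90 for GIMAP4 (rho = 0.89, permutation p = 1e-05 for both, the smallest that 100000 resamples can give). For GIMAP8, r was 0.70 (rho = 0.61, permutation p = 0.00094 and 0.00655). Without the 2 cows farthest from the median on C (9 and 19 for GIMAP4, 14 and 19 for GIMAP8), r was 0.85 for GIMAP4 and 0.64 for GIMAP8 (permutation p = 0.00012 and 0.00567). Both relations held after adjustment over the 24 tests made on single values of cows (adjusted permutation p = 0.00024 and 0.00376).

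Within breeds the agreement was close in the Holsteins and not in the Jerseys as labelled. The Holsteins gave r = 0.99 for GIMAP4 and r = 0.92 for GIMAP8 (n = 9 cows, exact permutation p = 6.61e-05 and 0.000254). The Jerseys gave r = 0.57 and r = 0.35 (n = 10 cows, permutation p = 0.0787 and 0.326). Without cows 10 and 17 the 8 other Jerseys gave r = 0.88 and r = 0.92 (exact permutation p = 0.0108 and 0.0115), and the 17 cows of both breeds gave r = 0.97 and r = 0.91. The difference between the breeds was not tested. As a description, 52 of 11966 genes (0.435%) agreed more closely between the libraries of a cow than GIMAP4 and 446 (3.73%) more closely than GIMAP8, where the median r over genes was 0.13.

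**Figure D2:**
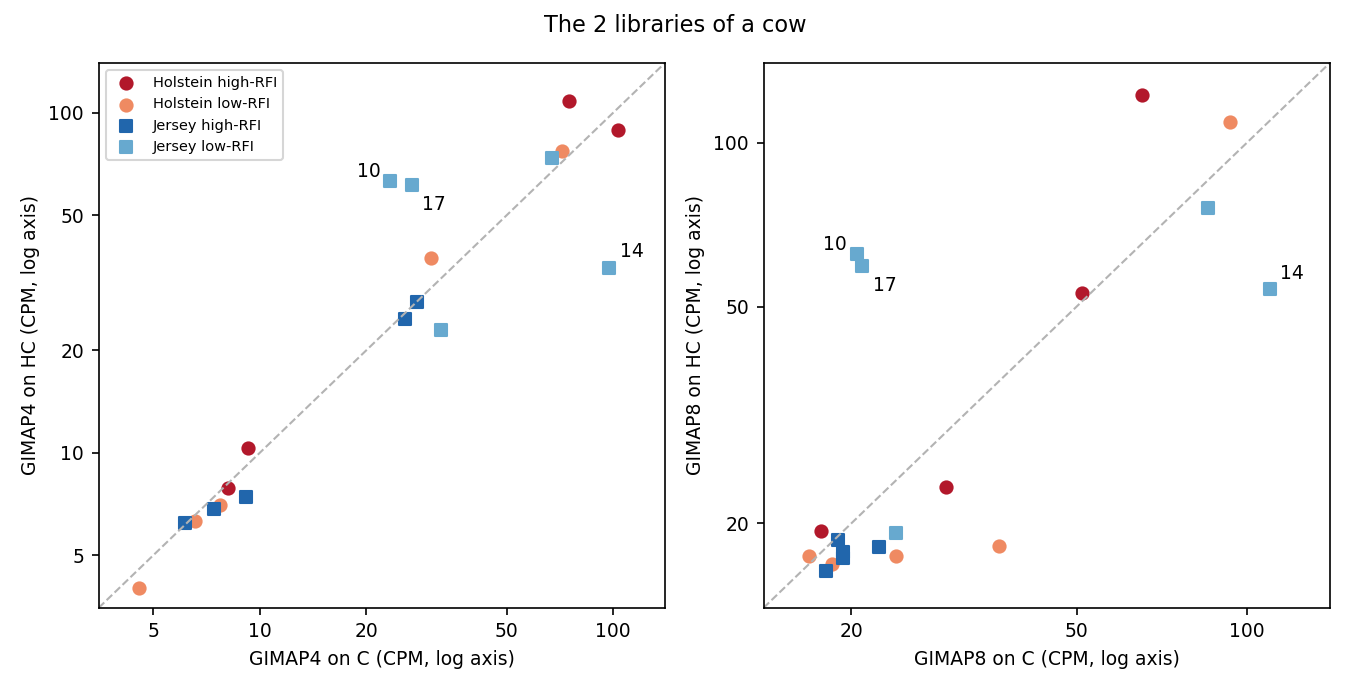
CPM on the C diet (horizontal, log axis) against CPM on the HC diet (vertical, log axis) for GIMAP4 (left) and GIMAP8 (right). Each point is a cow, circles are Holsteins and squares Jerseys, and the dashed line marks equal levels. Cows 10, 14 and 17 lie farthest from the line for GIMAP4, with log2 differences between diets of 1.41, -1.47 and 1.18.

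GIMAP4 and GIMAP8 were high in the same cows. The 11 libraries in the highest GIMAP4 range had 51.1 to 122 CPM of GIMAP8 with a median of 75.8. The 16 libraries in the lowest GIMAP4 range had 16.9 to 29.4 CPM of GIMAP8 with a median of 18.3. The middle range did not follow in step, since its 11 libraries reached from 16.4 to 53.9 CPM of GIMAP8 with a median of 19.2.

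The cow means of both genes, as deviations from the breed by RFI group means, correlated with r = 0.79 over 19 cows (rho = 0.75, permutation p = 3e-05 and 0.00048, adjusted p of r 0.00036 over the 24 permutation tests). Without the 2 cows farthest from the median of GIMAP4, cows 9 and 19, r was 0.71 (permutation p = 0.00148), and without cows 10 and 17 it was 0.79 (permutation p = 9e-05). Because the GIMAP4 cow means leave a gap between 9.80 and 25.2 CPM, r was also taken on each side of it, on levels with no group means taken out. The 11 cows above the gap gave r = 0.91. They include Jerseys of both RFI groups, whose difference chose the genes, so this value is a description without a test. The 8 cows below it gave r = 0.61 (exact permutation p = 0.135). The 9 Holsteins fell into 5 cows at 4.28 to 9.80 CPM and 4 cows at 34 to 95.9 CPM, too few on each side for a correlation within the breed.

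The differences between the diets also went together, but only through a few cows. HC minus C of GIMAP4 and of GIMAP8 correlated over 19 cows with r = 0.81 (permutation p = 0.00011), while rho was 0.40 (permutation p = 0.0894). Without cows 10 and 14, the farthest from the median, r was 0.68 and rho 0.16 (permutation p = 0.00975 and 0.527). When cows 10 and 17 were left out, r was 0.55 and rho 0.16 (permutation p = 0.0417 and 0.526). Without cows 10, 14 and 17, r was 0.27 (permutation p = 0.306), so that the relation was not seen without those 3 cows. They were picked after the values were seen, as the cows with the largest GIMAP4 differences, and leaving out extreme cows narrows the range. Leaving out each cow in turn gave r from 0.73 (without cow 10) to 0.92 (without cow 16).

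**Figure D3:**
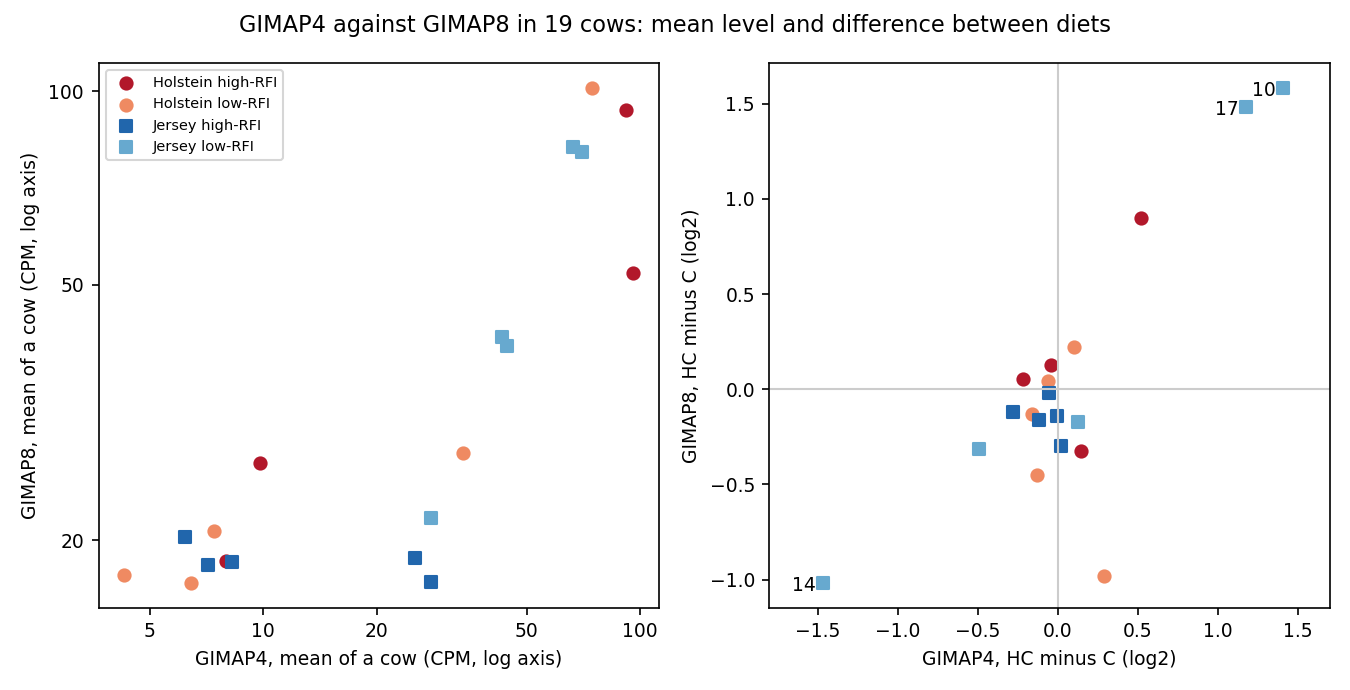
GIMAP4 against GIMAP8 in 19 cows: mean CPM of the 2 libraries of a cow on log axes (left), and HC minus C on the log2 scale (right). In the left panel the 5 cows with the highest GIMAP4 also hold the 5 highest GIMAP8 levels, from 52.1 to 101 CPM. In the right panel cows 10, 14 and 17 lie farthest from 0 along the GIMAP4 axis.

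Across all genes, the pattern most like GIMAP4 was that of ENSBTAG00000039928, a gene without a symbol in the sources used here. Its cow means, as deviations from the breed by RFI group means, followed those of GIMAP4 with r = 0.99 over 19 cows, against 0.81 for the next gene. It ranged from 3.03 to 373 CPM over the 38 libraries. In the 16 libraries of the lowest GIMAP4 range it had 3.03 to 8.92 CPM and 0.41 to 1.13 times the GIMAP4 count, in the middle range 48.2 to 141 CPM and 1.96 to 4.02 times, and in the highest 179 to 373 CPM and 2.92 to 3.77 times. Whether the 2 genes share read pairs was not tested. GIMAP8 ranked 3 of 11966 genes in likeness to GIMAP4, and the gene at rank 10 had r = 0.68.

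The gene most like GIMAP8 was ENSBTAG00000040427 (r = 0.79 over 19 cows, geometric mean over libraries 3.34 CPM), followed by GIMAP4, and ENSBTAG00000039928 ranked 4 (r = 0.75). Of the 10 genes most like each of GIMAP4 and GIMAP8, only ENSBTAG00000039928 was in both lists. These values are descriptions over cows that share their libraries across genes.

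**Figure D4:**
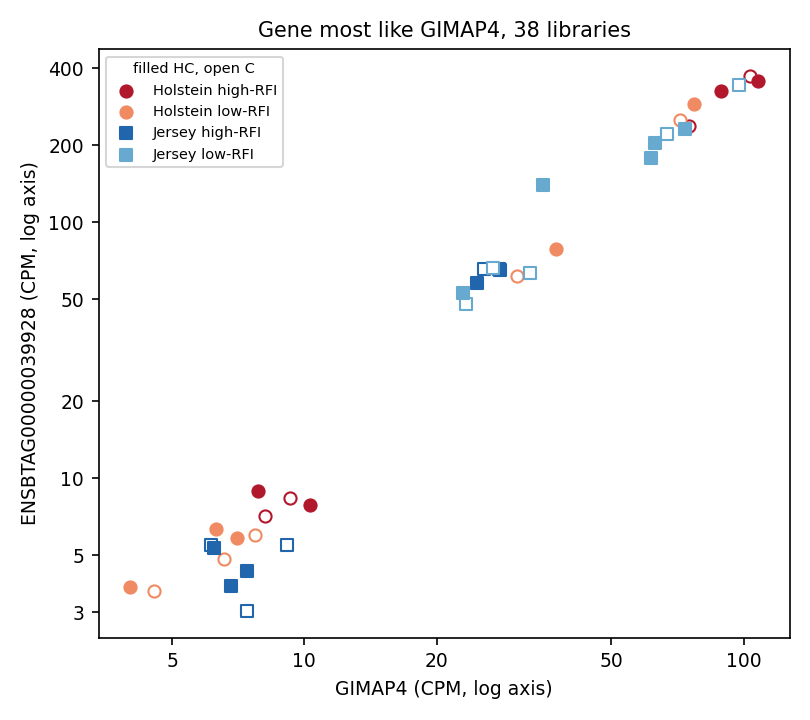
CPM of GIMAP4 (horizontal, log axis) against CPM of ENSBTAG00000039928 (vertical, log axis) in 38 libraries, with circles for Holsteins, squares for Jerseys, filled HC and open C. The 3 GIMAP4 ranges of 16, 11 and 11 libraries do not overlap along the vertical axis either. There the upper 2 ranges part between 141 and 179 CPM, and a wider gap lies within the middle range, between 78.7 and 141 CPM.

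The few leukocyte genes with a paired identifier spanned narrower ranges than GIMAP4 and overlapped between cows below and above its gap. CD3D, a chain of the T cell receptor complex, was at 2.18 to 5.50 CPM with a median of 3.25 in the 8 cows below the GIMAP4 gap. In the 11 cows above it, CD3D was at 3.09 to 7.01 CPM with a median of 3.79. NKG7, a granule protein of natural killer and cytotoxic T cells, was at 7.28 to 15.2 CPM in the 8 cows and 6.32 to 12.1 CPM in the 11. As deviations from the breed by RFI group means, which take out differences between RFI groups, CD3D over 19 cows correlated with GIMAP4 at r = 0.21 and with GIMAP8 at r = 0.15, and NKG7 at r = -0.27 and r = -0.14. HCLS1, a signalling adaptor of blood cells, was at r = 0.31 and 0.35, and LYZ, which encodes lysozyme, at r = -0.51 and -0.27. CR2, a complement receptor of B cells, was at r = -0.25 and -0.17. Its median was 73.5 CPM in the 8 cows below the gap and 53.6 CPM in the 11 above it. Only 4 of 134 genes on the lists of the GIMAP family, its neighbours, lymphocyte survival and cell type markers were paired with an identifier (2.99%), below the 80% set as the minimum, so the part of other cell types in the levels was not tested.

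The low-RFI Jerseys held the higher levels of both genes. Over cow means, the high-RFI Jerseys had 14.9 ± 10.6 CPM of GIMAP4 and the low-RFI Jerseys 50.3 ± 17.6 CPM (SD, n = 5 cows each). For GIMAP8 they had 18.6 ± 1.09 and 53.1 ± 26.8 CPM. The cow means of the groups did not overlap for GIMAP8, from 17.2 to 20.2 CPM against 21.6 to 81.8 CPM, and for GIMAP4 the highest high-RFI cow and the lowest low-RFI cow were both at 27.8 CPM. Fitted with parity and diet over the libraries as units, high minus low RFI was -2.01 (SE 0.34) for GIMAP4 and -1.48 (SE 0.29) for GIMAP8 on the log2 scale. The values were -1.74 and -1.70 when cows 10 and 17 were left out. These fits take the 2 libraries of a cow as separate units, although RFI differs only between cows. With the libraries summed by cow, the SE was 0.40 for GIMAP4 and 0.31 for GIMAP8. With cow as a random block, the differences were smaller, at -1.78 (SE 0.35) for GIMAP4 and -1.24 (SE 0.31) for GIMAP8 (limma-voom). These genes were named for this contrast, so no test is given. CD3D, of the T cell receptor complex, was in the high-RFI Jerseys at 3.09 to 3.57 CPM against 3.3 to 7.01 CPM in the low-RFI Jerseys over cow means, with fitted log2 differences of -0.38 for CD3D, -0.28 for LYZ, -0.17 for HCLS1 and -0.10 for NKG7, none of them called by edgeR (adjusted p = 0.676, 0.794, 0.927 and 0.991). The part of such cells in the difference of GIMAP4 and GIMAP8 was not tested.

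In the Holsteins, the high-RFI cows had 51.3 ± 49.0 CPM of GIMAP4 and the low-RFI cows 25.3 ± 30.0 CPM (SD, n = 4 and 5 cows). For GIMAP8 they had 47.6 ± 33.8 and 36.8 ± 36.3 CPM. Both groups ran from cows near the lowest to cows near the highest level and overlapped almost throughout. High minus low RFI was 1.32 (SE 0.53) for GIMAP4 and 0.51 (SE 0.30) for GIMAP8 on the log2 scale, with adjusted p = 0.498 and 0.696 in the edgeR quasi-likelihood test, so that 0 of the 2 genes were called where 0.0665% of 12025 genes were. The unadjusted p of GIMAP4 was 0.0224 in this fit, which takes the 2 libraries of a cow as separate units. The difference of GIMAP4 ranged from 0.59, without cow 9, to 1.79, without cow 15. With the libraries summed by cow, the edgeR p of GIMAP4 was 0.109 unadjusted and 0.987 adjusted. With cow as a random block 5 genes were called in place of 8, and the adjusted p of GIMAP4 and GIMAP8 was 0.79 and 0.894 (limma-voom). Over cow means with no covariate the differences were 1.01 and 0.48 (exact permutation p = 0.405 and 0.508). Leaving out each cow moved these differences between 0.45 (without cow 9) and 1.61 (without cow 2) for GIMAP4 and between 0.083 (without cow 15) and 0.94 (without cow 19) for GIMAP8, and the fitted difference of GIMAP8 between 0.28 and 0.88.

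Of the leukocyte genes, LYZ was higher in the high-RFI Holsteins. It was at 29.5 to 46.1 CPM in their cow means and at 12.7 to 28.8 CPM in the low-RFI cows, a fitted log2 difference of 0.98. CD3D was at 4.50 to 5.50 CPM against 2.18 to 3.93 CPM, a log2 difference of 0.59, and HCLS1 and NKG7 differed by 0.39 and 0.51. CR2, a complement receptor of B cells, went the other way, at 43.9 to 65.5 CPM against 53.2 to 106 CPM, a log2 difference of -0.67. The identifiers of these 5 genes came from the study's DEGs between RFI groups of Holsteins. Their differences in this contrast are thus descriptions, and no test of them is given. With the libraries summed by cow, edgeR called 0 of 12025 genes for this contrast. The part of these cells in the levels of GIMAP4 and GIMAP8 was not tested. The difference of the RFI contrast between the breeds was not tested, because the Jersey contrast chose the genes.

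The diet moved neither gene beyond the spread between cows in the Holsteins. HC minus C was 0.05 ± 0.24 (SD, n = 9 cows) on the log2 scale for GIMAP4, higher on HC in 4 of 9 cows, and -0.06 ± 0.52 for GIMAP8, higher on HC in 5 of 9 (exact sign-flip permutation p = 0.562 and 0.707). The largest single changes were in cow 15, where GIMAP8 went from 65.2 to 122 CPM, and in cow 16, where it went from 36.5 to 18.2 CPM. In the edgeR fit HC minus C was 0.04 (SE 0.45) for GIMAP4 and 0.06 (SE 0.27) for GIMAP8, with adjusted p = 0.988 and 0.967. Neither gene was called, against 0.782% of 12025 genes. With cow as a block 345 genes were called in place of 94, and HC minus C was 0.10 (SE 0.083) for GIMAP4 and -0.02 (SE 0.12) for GIMAP8, with edgeR adjusted p = 0.625 and 0.959.

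In the Jerseys the result of the diet hung on cows 10, 14 and 17. Over all 10 cows, HC minus C was 0.03 ± 0.81 for GIMAP4 and 0.08 ± 0.81 for GIMAP8 on the log2 scale, higher on HC in 4 and in 2 cows (exact sign-flip permutation p = 0.957 and 0.824). The edgeR fit gave 0.07 (SE 0.32) and 0.02 (SE 0.28), with adjusted p = 0.954 and 0.988, and called 0 of the 2 genes against 0.37% of 11905 genes. Cows 10 and 17 were the 2 Jerseys with GIMAP8 higher on HC. Without them, GIMAP8 was lower on HC in 8 of 8 cows, by a mean of -0.28 ± 0.31 (exact sign-flip permutation p = 0.00781, not adjusted, the smallest that 8 cows allow). That p follows from leaving out the cows that went the other way, so no conclusion on diet is drawn from it. GIMAP4 was lower on HC in 6 of those 8 cows, by a mean of -0.28 ± 0.52 (exact p = 0.117). Without cow 14 as well the means were -0.11 for GIMAP4 and -0.17 for GIMAP8, the latter lower on HC in 7 of 7 cows (exact sign-flip permutation p = 0.234 and 0.0156, not adjusted). The p of GIMAP8 has the same limit here. The edgeR fit without these cows gave -0.31 (SE 0.34) for GIMAP4 and -0.24 (SE 0.26) for GIMAP8, with adjusted p = 0.849 and 0.845. With cow as a block and all 10 cows, 71 genes were called in place of 44, and HC minus C was 0.09 (SE 0.22) for GIMAP4 and 0.12 (SE 0.22) for GIMAP8, with edgeR adjusted p = 0.906 and 0.862. The blocked fit without cows 10 and 17 called 21 genes and gave -0.24 (SE 0.16) and -0.23 (SE 0.11), with adjusted p = 0.703 and 0.552.

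No difference in the response to diet between groups passed a test. HC minus C in high-RFI less that in low-RFI cows was 0.09 for GIMAP4 and 0.45 for GIMAP8 among Holsteins, and -0.24 and -0.46 among Jerseys (exact permutation p = 0.611, 0.238, 0.722 and 0.437). The Jerseys less the Holsteins gave -0.02 and 0.14 (exact permutation p = 0.956 and 0.66), and without cows 10 and 17 -0.33 and -0.22 (exact permutation p = 0.074 and 0.315). Without cows 10 and 17, the Jersey differences by RFI group turned to 0.52 and 0.35 (exact permutation p = 0.143 and 0.0357, not adjusted). Only 3 low-RFI Jerseys are then left, and without cow 14 among them the differences were 0.093 and 0.095 (exact permutation p = 0.714 and 0.286).

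The breeds overlapped over nearly the whole range of both genes. GIMAP4 cow means ran from 4.28 to 95.9 CPM with a median of 9.80 in the Holsteins and from 6.19 to 70.2 CPM with a median of 27.8 in the Jerseys. GIMAP8 ran from 17.2 to 101 CPM with a median of 26.4 in the Holsteins and from 17.2 to 81.8 CPM with a median of 20.9 in the Jerseys. Jersey minus Holstein was 0.07 (SE 0.79) for GIMAP4 and -0.17 (SE 0.41) for GIMAP8 on the log2 scale (edgeR adjusted p = 0.973 and 0.861), so that 0 of the 2 genes were called against 3.3% of 11967 genes. With all libraries and cow as a random block, 841 genes were called in place of 395, neither of them GIMAP4 or GIMAP8 (limma-voom adjusted p = 0.858 and 0.818). Over cow means the differences were 0.26 and -0.16 (exact permutation p = 0.708 and 0.702). By mean CPM, the order of the 8 breed, RFI and diet groups ran for GIMAP4 from the high-RFI Jerseys on HC (14.6 CPM) to the high-RFI Holsteins on HC (53.7 CPM). For GIMAP8 it ran from 17.6 to 54.4 CPM between the same groups. Every group overlapped its neighbour in that order for both genes.

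In the Holsteins the cows of parity 3 lay below those of parity 1 for both genes, but no parity difference passed a test with all cows. The Holsteins of parity 1 had GIMAP4 cow means of 34, 74.4 and 91.5 CPM, those of parity 2 had 7.39, 9.80 and 95.9 CPM, and those of parity 3 had 4.28, 6.44 and 7.99 CPM. GIMAP8 was at 27.3, 93.6 and 101 CPM in parity 1, at 20.7, 26.4 and 52.1 CPM in parity 2 and at 17.2, 17.7 and 18.5 CPM in parity 3. For both genes all Holsteins of parity 3 were below all Holsteins of parity 1. The share of all genes that separate these cows in the same way was not counted, so this is a description.

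The Jerseys of parity 1 had GIMAP4 cow means of 7.12, 8.27, 44.2 and 66.2 CPM, those of parity 2 had 6.19 and 43.1 CPM and those of parity 3 had 25.2, 27.8, 27.8 and 70.2 CPM. GIMAP8 was at 18.3, 18.5, 40.2 and 81.8 CPM in parity 1, at 20.2 and 41.4 CPM in parity 2, and at 17.2, 18.8, 21.6 and 80.6 CPM in parity 3. The parity groups of the Jerseys overlapped for both genes.

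Over both breeds, parity 3 minus parity 1 was -0.97 (SE 0.84) for GIMAP4 and -0.98 (SE 0.46) for GIMAP8 on the log2 scale, with edgeR adjusted p = 0.72 and 0.428, and 0 of the 2 genes were called where 0.326% of 11967 genes were. Leaving out each cow moved the GIMAP4 value between -1.52 (without cow 8) and -0.53 (without cow 6) and the GIMAP8 value between -1.46 (without cow 8) and -0.67 (without cow 15). Over cow means the differences were -0.93 and -0.86 (exact permutation within breeds, 7 cows against 7, p = 0.253 and 0.109). Without cow 8, a Jersey of parity 3, the difference of GIMAP8 was -1.19 (exact permutation p = 0.0229, not adjusted). With all libraries and cow as a random block, 163 genes were called in place of 39, neither of them GIMAP4 or GIMAP8 (limma-voom adjusted p = 0.495 and 0.195). In the Holsteins alone they were -3.23 and -1.77 (exact permutation p = 0.1 for both, the smallest that 3 against 3 cows allow). In the Jerseys alone they were 0.79 and -0.18 (exact permutation p = 0.4 and 0.829).

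The parity effect of the Jerseys less that of the Holsteins, a test added after the values were seen, was 3.91 (SE 1.31) for GIMAP4 and 1.95 (SE 0.82) for GIMAP8 on the log2 scale. The unadjusted p-values were 0.00883 and 0.0299 and the edgeR adjusted p was 0.91 for both. This test called 0 of 11967 genes (0%), while 608 had an unadjusted p under 0.05. With cow as a random block limma-voom called 0 as well, with 660 at an unadjusted p under 0.05. In that fit the difference was 4.19 (SE 0.95) for GIMAP4 and 1.66 (SE 0.63) for GIMAP8. Its limma-voom p-values were 9.05e-05 and 0.0129 unadjusted and 0.28 and 0.839 adjusted. Holstein parity 1 and 3 each held 1 high-RFI cow of 3, and the RFI term was in each of these fits.

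**Figure D5:**
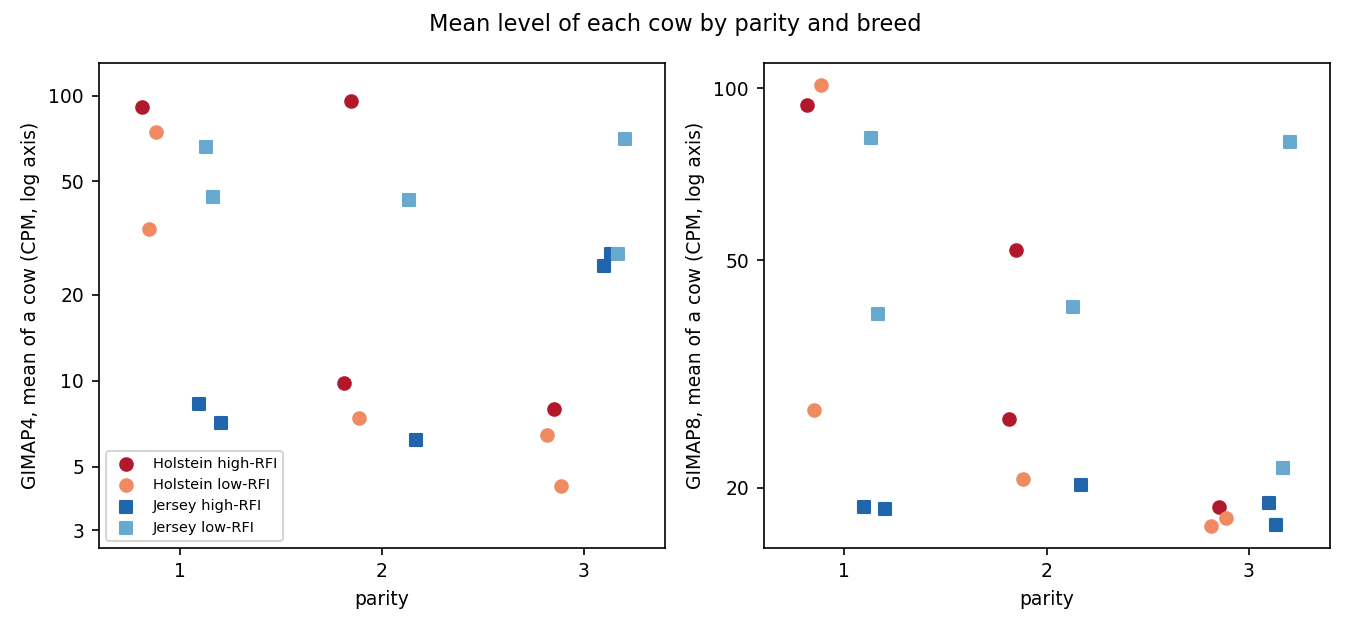
Mean CPM of each cow (log axis) by parity for GIMAP4 (left) and GIMAP8 (right), with circles for Holsteins and squares for Jerseys, coloured by RFI group. The Holsteins of parity 3 lie at 4.28 to 7.99 CPM of GIMAP4 and those of parity 1 at 34 to 91.5 CPM, while Jerseys of both parities cover a shared range.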

How the data were processed

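RNA from liver biopsies was sequenced as paired-end reads. Per the labels and the study's methods, the authors trimmed adapters with cutadapt 1.6, aligned to UMD3.1 with STAR 2.3.0 allowing at most 5 mismatches, and counted read pairs per Ensembl 82 gene with HTSeq-count. The HTSeq version and its strand setting are not given in the sources used here. The deposited files hold raw gene counts, 1 file per library, with HTSeq's summary lines left out of the gene totals here. Of the read pairs in the gene and summary lines together, 74.9% to 79.9% fell on genes.

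GIMAP4, GIMAP8 and all gene lists were chosen with earlier results of these data known. The genes named were both members, any measured GIMAP gene, the 10 genes most like each member over cow means (only 2 are given by identifier, as they have no symbol), and up to 4 genes per list. HCLS1, LYZ and CR2 were added after their values were seen. Symbols came from 77 identifier pairs in the study's tables.

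CPM is the count per 1000000 read pairs on Ensembl genes. Genes at 1 CPM or more in at least 8 Holstein or 10 Jersey libraries, or 9 cows, were tested with edgeR 4.0.16 (quasi-likelihood, TMM, Benjamini-Hochberg, threshold 0.05, R 4.3.3). Diet and RFI were fitted within breeds with parity. Breed and parity were fitted on counts summed per cow with RFI. Fitted SEs are the log2 fold change over the square root of F. Single genes were tested over cows on log2(CPM + 0.5) with two-sided exact permutation tests, or 100000 resamples for correlations with 10 or more cows, which understates changes of low levels. Alternatives used DESeq2 1.42.0, limma 3.58.1 and other models. The scripts were tested on simulated data.

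C and HC libraries with the same number are the same cow by the labels. Over all genes their deviations from group means correlated at 0.20 to 0.58 in the Holsteins (over 0.1 in 9 of 9 cows) and at -0.15 to 0.60 in the Jerseys (over 0.1 in 7 of 10). Libraries of separate cows are biological replicates, and none of the 703 pairs of libraries agreed within sampling noise (chi-square per degree of freedom at least 12.9). A planned correlation of the uncentred levels over Holsteins was not run, because the cows fall into groups of 5 and 4.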

Additional observations from a re-analysis of the deposited data

Results flagged for a closer look

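In 7 of 50 groups of 4 to 10 samples tested, the highest sample stood apart from the others by Dixon's test at 95%, where chance marks about 1 group in 20. That rate is for normally distributed values. The CPM of GIMAP4 fell into separate ranges and that of GIMAP8 was high in some cows only, so the rate need not hold here. The groups overlap, and the 7 come from 2 cows. Cow 19, a low-RFI Holstein of parity 1, stood apart for GIMAP8 among the 5 low-RFI Holsteins, at 93.5 CPM on C, 109 CPM on HC and a mean of 101 CPM, with the other 4 cow means at 17.2 to 27.3 CPM. Cow 8, a low-RFI Jersey, stood apart among the 4 Jerseys of parity 3 and among the 7 cows of parity 3 in both breeds. Its mean was 70.2 CPM for GIMAP4 and 80.6 CPM for GIMAP8. The other 3 Jerseys of parity 3 had 25.2 to 27.8 CPM of GIMAP4 and 17.2 to 21.6 CPM of GIMAP8.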

How the results depend on the processing

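Setting aside the omission of single cows and the counts of all genes called, 126 of the values recomputed under another setting stayed the same, 18 changed sign, 2 gained a call and 1 lost it. Staying the same means an unchanged direction and call, except for the RFI difference of the Jerseys, where no call is used. There it means the same sign and a shift smaller than the SD of cow means within RFI groups. The cause of the changes was not tested. The diet effect of GIMAP8 in the Holsteins turned to -0.022 with cow as a block and to -0.010 with the crossover period in the model, and the breed difference of GIMAP4 to -0.34 without parity. In the comparisons tested here the blocked fits changed no call of either gene. Without cows 10 and 17, the Jersey diet effect turned to -0.31 for GIMAP4 and -0.24 for GIMAP8 in edgeR and to -0.28 for both over cows, the Jersey difference of diet effects between RFI groups to 0.52 and 0.35, and the breed difference of diet effects to -0.22 for GIMAP8. With the block as well, the Jersey diet effects were -0.24 and -0.23. Scaled to TMM totals, that of GIMAP4 was 0.0092. Without cows 10, 14 and 17, the correlation of the diet differences fell to 0.27, the Jersey diet effects over cows were -0.11 and -0.17, their differences between RFI groups were 0.093 and 0.095, and the breed difference for GIMAP8 was -0.11.

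The counts of genes called moved with the tool, the terms, the unit and the cows. For the Holstein diet (94 genes) they were 343 with DESeq2, 48 without parity and 345 with the cow block. For Holstein RFI (8) they were 16 with no filter, 61 with DESeq2, 5 with the random block and 0 with libraries summed by cow, where 555 genes had an unadjusted p under 0.05 in edgeR. For the Jersey diet (44) they were 196 with DESeq2, 71 with the block, 21 with the block and without cows 10 and 17, 6 without cows 10 and 17 and 0 without parity, where 1318 had an unadjusted p under 0.05 in edgeR. For breed (395) they were 808 with DESeq2, 841 with the block, 1133 with libraries as units and 56 without cows 10 and 17. For parity (39) they were 233 with DESeq2, 25 without RFI, 163 with the block and 292 with libraries as units.

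Leaving out each cow in turn gave diet effects of -0.016 to 0.11 for GIMAP4 and -0.039 to 0.12 for GIMAP8 in the Holsteins, and -0.11 to 0.38 and -0.12 to 0.24 in the Jerseys. Breed differences ran from -0.38 to 0.62 and from -0.37 to 0.047. Over cows, diet effects ran from -0.0082 to 0.084 and -0.18 to 0.055 in the Holsteins and from -0.12 to 0.20 and -0.084 to 0.21 in the Jerseys. Their difference by RFI group for GIMAP4 was -0.047 to 0.20 in the Holsteins and -0.64 to 0.075 in the Jerseys, and their difference by breed was -0.17 to 0.15 and -0.024 to 0.27. Breed over cows gave -0.0018 to 0.54 and -0.33 to 0.041. Parity over cows gave -1.19 to -0.65 for GIMAP8, and -0.69 to 0.25 in the Jerseys alone. The agreement of Jersey libraries in GIMAP4 was 0.42 to 0.78, and passed the test without cow 10 or cow 14. The genes called ranged from 13 (without cow 1) to 134 for the Holstein diet, 4 (without cow 7) to 15 (without cow 1) for Holstein RFI, 3 (without cow 4) to 51 for the Jersey diet, 178 (without cow 2) to 732 (without cow 14) for breed and 4 (without cow 2) to 52 for parity. The depth limits GIMAP4 in the 16 libraries of the lowest range most, and the spread between cows limits every comparison of groups.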

Other observations

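The differences between the diets were also set beside those of every other gene, as a description over 19 cows that share their libraries. ENSBTAG00000039928 was again the gene most like GIMAP4, with r = 0.95 for HC minus C, and the gene at rank 10 had r = 0.82. For GIMAP8 the most alike gene reached r = 0.86, and GIMAP4 ranked 10. The 2 lists of 10 shared 5 genes. CR2, a complement receptor of B cells, had r = 0.55 with GIMAP4 and r = 0.71 with GIMAP8 for HC minus C, but r = -0.25 and -0.17 for the cow means. Without cows 10 and 17, ENSBTAG00000039928 had r = 0.90 with GIMAP4 and CR2 had r = 0.47 with GIMAP4 and 0.77 with GIMAP8 for HC minus C. Without cows 10, 14 and 17 these were 0.71, -0.023 and 0.68.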
